A study of Mus musculus with 6 samples.

Results

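The genes described here carry the interferon signal from outside the cell to the nucleus: the ligand gene Ifnb1, the receptor subunit genes Ifnar1, Ifnar2, Ifngr1, Ifngr2 and Ifnlr1, the kinase genes Jak1 and Tyk2, and the transcription factor gene Stat2. These 9 genes were taken by name from a table of 54446 mouse gene rows, and each symbol matched 1 row. The corneas came from C57BL/6 mice of wild-type genotype at 6 weeks of age, and their RNA was sequenced in 3 groups of 2 samples: unwounded, wounded, and wounded with RNase III, a nuclease of double-stranded RNA. The wound removed part of the limbus, the epithelium of the cornea and some of the stroma, and RNase III was given under the conjunctiva. The labels do not say whether the corneas were pooled, whether replicates came from separate animals, how long after the wound the tissue was taken, or whether the wounded corneas without enzyme had a control injection. The p-values therefore measure the spread between these samples only.

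Interferons act through pairs of receptor chains. Type I interferons, interferon beta among them, bind IFNAR1 and IFNAR2, interferon gamma binds IFNGR1 and IFNGR2, and interferon lambda binds IFNLR1 together with IL10RB, a chain shared with other cytokines of the interleukin 10 family. Kinases of the JAK family are held on the inner tails of these chains, TYK2 on IFNAR1 and IL10RB, and JAK1 on IFNAR2, IFNGR1 and IFNLR1. Type I and lambda interferons activate a complex that contains STAT2 and IRF9 and binds the interferon-stimulated response element (ISRE), while interferon gamma acts mainly through STAT dimers on the gamma-activated site (GAS). Lambda receptors are found mostly on epithelial cells, and the cornea's outer layer is an epithelium.

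The values are TPM, which give each gene's length-corrected share of the transcripts in its library and keep no sequencing depth. All 6 libraries held Krt12, the keratin of corneal epithelium, at 11216.58 TPM or more. The summed level of 11 leukocyte markers was 274.17 and 196.49 TPM in unwounded corneas (replicates 1 and 2). It was 8974.68 and 792.54 TPM after the wound and 1398.23 and 1622.34 TPM with RNase III. S100a8 and S100a9 made up most of the sum in each wounded library, with or without RNase III. With the wound 6 of the 9 tested leukocyte markers were called higher and 1 lower, by the rule given below. Of all tested genes 6.12% were called higher and 9.83% lower. The marker that fell was Itgam, from 72.61 and 77.78 TPM to 17.53 and 17.35 TPM (-2.05, limma adjusted p = 0.00859). The T cell gene Cd3e was at 0 in wounded replicate 2 and in both RNase III libraries. Keratocyte markers, 4 in all, summed to 6351.62 and 4923.79, 3274.72 and 3669.51, and 885.54 and 1504.60 TPM in the same order. RNase III replicate 2 also held 1281.15 TPM of the lens gene Cryaa, against 1.07 TPM in replicate 1. The part that these differences in tissue make-up play in the results was not tested, and in bulk tissue fewer cells of a type cannot be told apart from less RNA per cell. Differences below are on the log2(TPM + 1) scale from limma, with Benjamini-Hochberg adjustment over the 14748 genes that had at least 1 TPM in at least 2 samples, and a gene is called at an adjusted p under 0.05. The smallest two-sided p of an exact permutation test with 2 samples a group is 0.333, so none was run on single genes or ratios.

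Ifnb1, the single mouse gene of interferon beta (ENSMUSG00000048806), lies on the minus strand of chromosome 4 from 88522025 to 88522774 (GRCm38, as for all gene positions here). Its TPM was 0 in each of the 6 libraries, so it passed no filter and entered no test. Of 20 other interferon ligand genes, of types I, II and III, 16 were listed at 0 in all libraries and 4 had a value above 0, the highest being 0.15 TPM, for Ifne and for Ifnl2, each in 1 wounded library. None of these 20 passed the filter. The receptor, kinase and Stat2 genes were all above 1 TPM in every library, so the 8 were tested whatever group they were high in.

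In unwounded corneas the order of levels was led by Ifngr1 at 61.1 ± 1.8 TPM (SD, n = 2) and Jak1 at 58.9 ± 1.1 TPM, followed by Ifngr2 at 41.9 ± 1.7 TPM, Ifnar2 at 20.5 ± 1.2 TPM and Ifnar1 at 17.3 ± 1.4 TPM. Tyk2 and Stat2, at 12.9 ± 1.4 and 11.98 ± 3.41 TPM, overlapped between libraries. Ifnlr1 was the lowest of the detected genes, at 7.97 ± 0.06 TPM. After the wound Ifnar2 had moved up beside Jak1, with overlapping values, and Stat2 above Ifngr2. In RNase III corneas Stat2, at 8.79 and 42.88 TPM, overlapped Ifnar2, Ifngr2, Ifnar1 and Tyk2 in level. Ifngr1 stayed the most abundant and Ifnlr1 the least abundant of the 8 in each group.

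**Figure D1:**
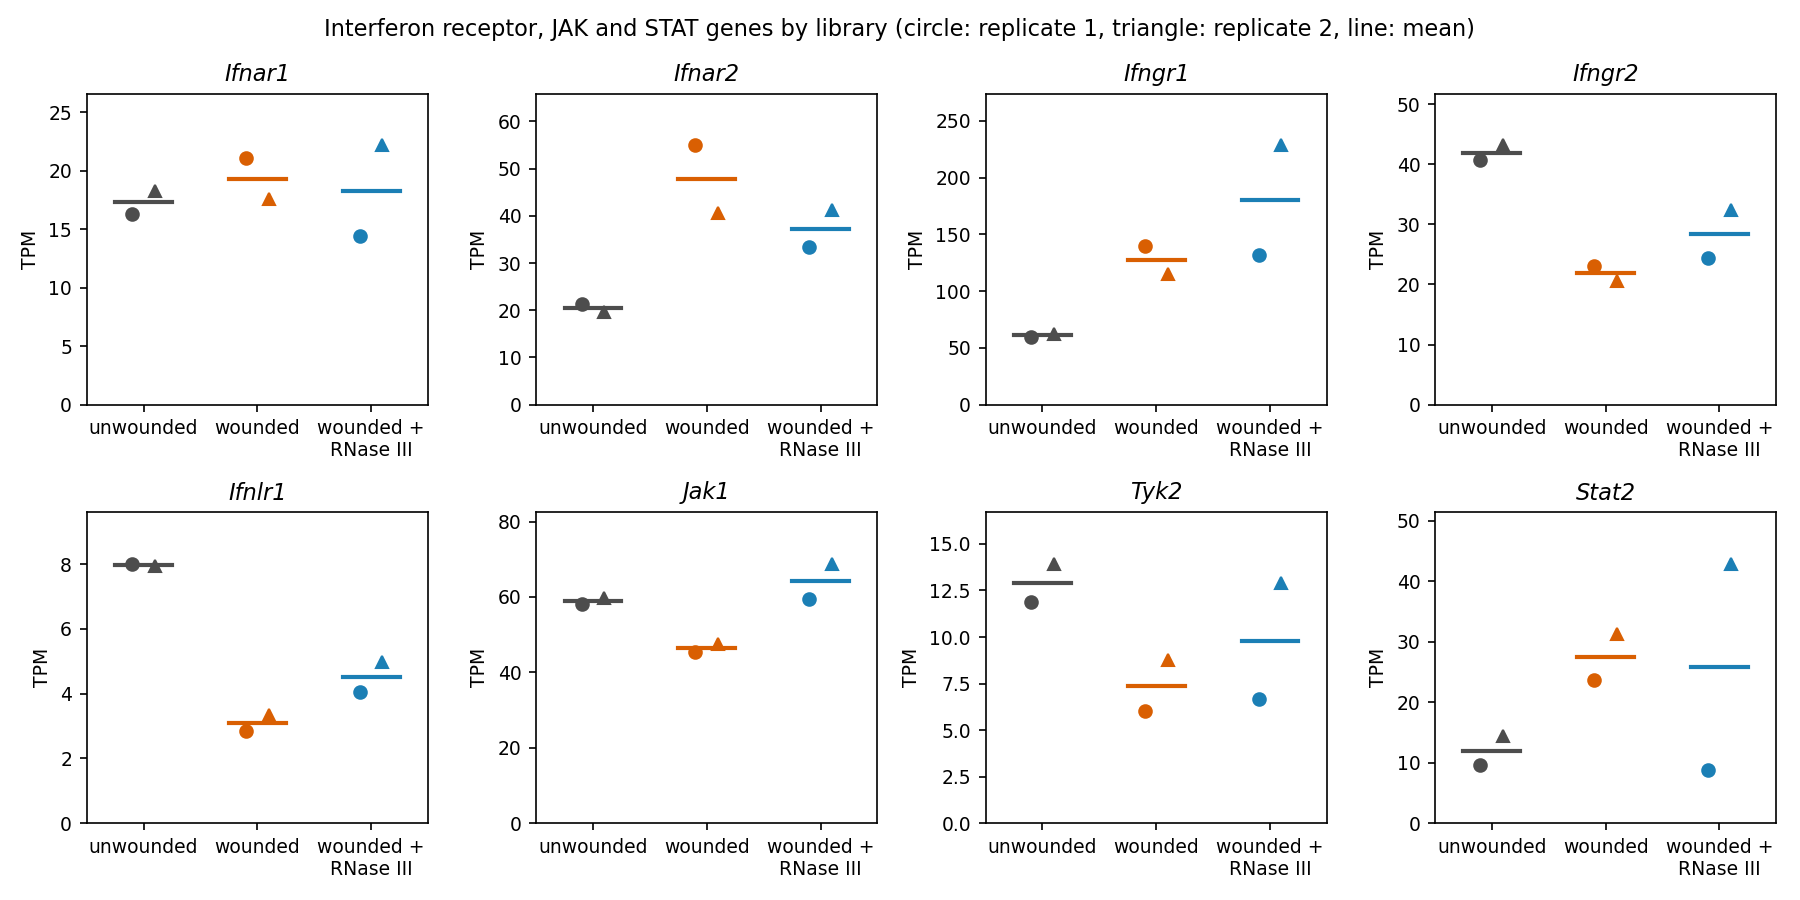
TPM (y axis, from 0, with its own scale in each panel) of the 8 detected genes in each library of the 3 groups; circles are replicate 1, triangles replicate 2 and lines the mean of 2. Ifnar2 and Ifngr1 lie higher and Ifngr2 and Ifnlr1 lower in all 4 wounded libraries than in the 2 unwounded ones, and the Stat2 values of the RNase III corneas lie far apart, at 8.79 and 42.88 TPM.

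The first comparison asks how the receiving end of the interferon pathway differed after the wound. Ifnar2 rose, and Ifngr2 and Ifnlr1 fell. Ifngr1 and Stat2 were higher and Jak1 and Tyk2 lower in both wounded libraries than in both unwounded ones without passing the test, and Ifnar1 overlapped. In all, 3 of 8 tested genes were called, 1 higher and 2 lower, where 15.9% of all tested genes were called, 6.12% higher and 9.83% lower. Under median-of-ratios scaling 2 of the 8 were called higher and 1 lower, beside 1525 higher and 1001 lower of all tested genes in place of 902 and 1450. The libraries did not overlap for 7 of the 8, with 3 higher and 4 lower, and they did not overlap for 72.1% of all tested genes, 25.3% higher and 46.8% lower. The median log2 difference of the 8 was -0.10, beside -0.26 over all tested genes.

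Of the type I receptor chains 1 was called. Ifnar2 encodes the chain that binds interferon most tightly and carries JAK1 (ENSMUSG00000022971, chromosome 16, 91372783 to 91405589, plus strand). It had 21.31 and 19.65 TPM in unwounded corneas, 54.94 and 40.66 TPM after the wound and 33.42 and 41.15 TPM with RNase III. All 4 wounded libraries, with or without enzyme, exceeded both unwounded ones, and wounded replicate 1 was the highest. Ifnar2 rose by 1.17 with the wound (SE 0.23, limma adjusted p = 0.0278), a 2.25-fold change on the TPM + 1 scale. Ifnar1, the chain that carries TYK2 (ENSMUSG00000022967, chromosome 16, 91485238 to 91507441, plus strand), had 16.32 and 18.30, 21.07 and 17.55, and 14.45 and 22.18 TPM in the same order. The 3 groups overlapped, and the wound difference was 0.15 (95% interval -0.50 to 0.80, adjusted p = 0.72).

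Some of the genes most like Ifnar2 are leukocyte genes. Over the 6 libraries and 9981 genes with a mean of at least 5 TPM, the closest patterns on the log2 scale were those of Clec4d, a myeloid lectin receptor gene (r = 0.999), Lilr4b, an inhibitory leukocyte receptor gene (r = 0.999), and Tnc, a matrix glycoprotein gene (r = 0.997). Clec4d ran from 0.59 and 0.33 TPM in unwounded corneas to 313.68 and 59.19 TPM after the wound and 18.81 and 61.87 TPM with RNase III. The libraries share the same split into wounded and unwounded, and r here is a description over 6 points. The part of leukocytes in the Ifnar2 level was not tested. The Ifnar2 call was lost without unwounded replicate 1, unwounded replicate 2 or wounded replicate 1, when the log2 difference was 1.22, 1.11 and 0.96 and the adjusted p was 0.141, 0.213 and 0.133. It was also lost with no filter on low values (adjusted p = 0.062).

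Of the gamma receptor chains Ifngr2 fell, while Ifngr1 had higher values that did not pass. Ifngr1, the ligand-binding chain (ENSMUSG00000020009, chromosome 10, 19591949 to 19610229, plus strand), had 59.83 and 62.41 TPM in unwounded corneas, 139.93 and 115.26 TPM after the wound and 132.18 and 228.47 TPM with RNase III. The lowest wounded library stood well above the highest unwounded one. The wound difference was 1.04 (SE 0.28, 95% interval 0.38 to 1.71, adjusted p = 0.0502), just outside the threshold. With median-of-ratios scaling, which lifts the all-gene median of this comparison from -0.26 to -0.01, Ifngr1 rose by 1.33 (adjusted p = 0.027), and it was also called with only the 2 groups compared (adjusted p = 0.0251). Without RNase III replicate 1 or 2 it was called too. Ifngr1 was not called with no filter (adjusted p = 0.108), with no trend (adjusted p = 0.0761) or with a pseudocount of 0.1 (adjusted p = 0.0527). Nor was it called without any 1 of the unwounded or wounded libraries. The differences were then 1.01 and 1.07 without unwounded replicates 1 and 2, and 0.90 and 1.18 without wounded replicates 1 and 2.

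Ifngr2, the signalling chain that completes the gamma receptor (ENSMUSG00000022965, chromosome 16, 91547072 to 91565623, plus strand), had 40.66 and 43.13 TPM in unwounded corneas, 23.10 and 20.59 TPM after the wound and 24.32 and 32.30 TPM with RNase III. Both unwounded libraries were above the other 4. Ifngr2 fell by 0.91 with the wound (SE 0.22, adjusted p = 0.0403). The closest patterns were those of Sfxn3, a mitochondrial carrier gene (r = 0.998), Kmt2e (r = 0.996) and Plekha5 (r = 0.996). The Ifngr2 call was lost without any 1 of the unwounded or wounded libraries (differences -0.95, -0.87, -0.99 and -0.83 for unwounded replicates 1 and 2 and wounded replicates 1 and 2), under median-of-ratios scaling (-0.63, adjusted p = 0.076), with no trend (adjusted p = 0.0583) and with no filter (adjusted p = 0.0722).

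The lambda receptor gene also fell. Ifnlr1 encodes the chain particular to interferon lambda (ENSMUSG00000062157, chromosome 4, 135686287 to 135708181, plus strand). It had 8.01 and 7.93 TPM in unwounded corneas, 2.86 and 3.33 TPM after the wound and 4.06 and 4.97 TPM with RNase III. The groups did not overlap, and the RNase III values lay between the other 2 groups. Ifnlr1 fell by 1.13 with the wound (SE 0.28, adjusted p = 0.0424). Its partner Il10rb, from the list of other pathway genes, had 31.89 and 27.64 TPM in unwounded and 32.37 and 29.05 TPM in wounded corneas. Genes with the closest pattern to Ifnlr1 were Sema4a, a semaphorin gene (r = 0.997), Usp46, a deubiquitinase gene (r = 0.997), and Lnx1, a ubiquitin ligase gene (r = 0.997). Corneal epithelial markers, 6 in all, summed to 39536.94 and 37679.05 TPM in unwounded and 26663.51 and 37308.03 TPM in wounded corneas. Of these 6, Epcam rose (1.38, adjusted p = 0.0246) and Pax6 fell (-2.04, adjusted p = 0.031), and the part of the epithelium in the Ifnlr1 level was not tested. The Ifnlr1 call was lost without each of the 4 unwounded and wounded libraries (differences between -1.05 and -1.22, adjusted p = 0.2, 0.253, 0.19 and 0.0852) and with no filter (adjusted p = 0.101).

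**Figure D2:**
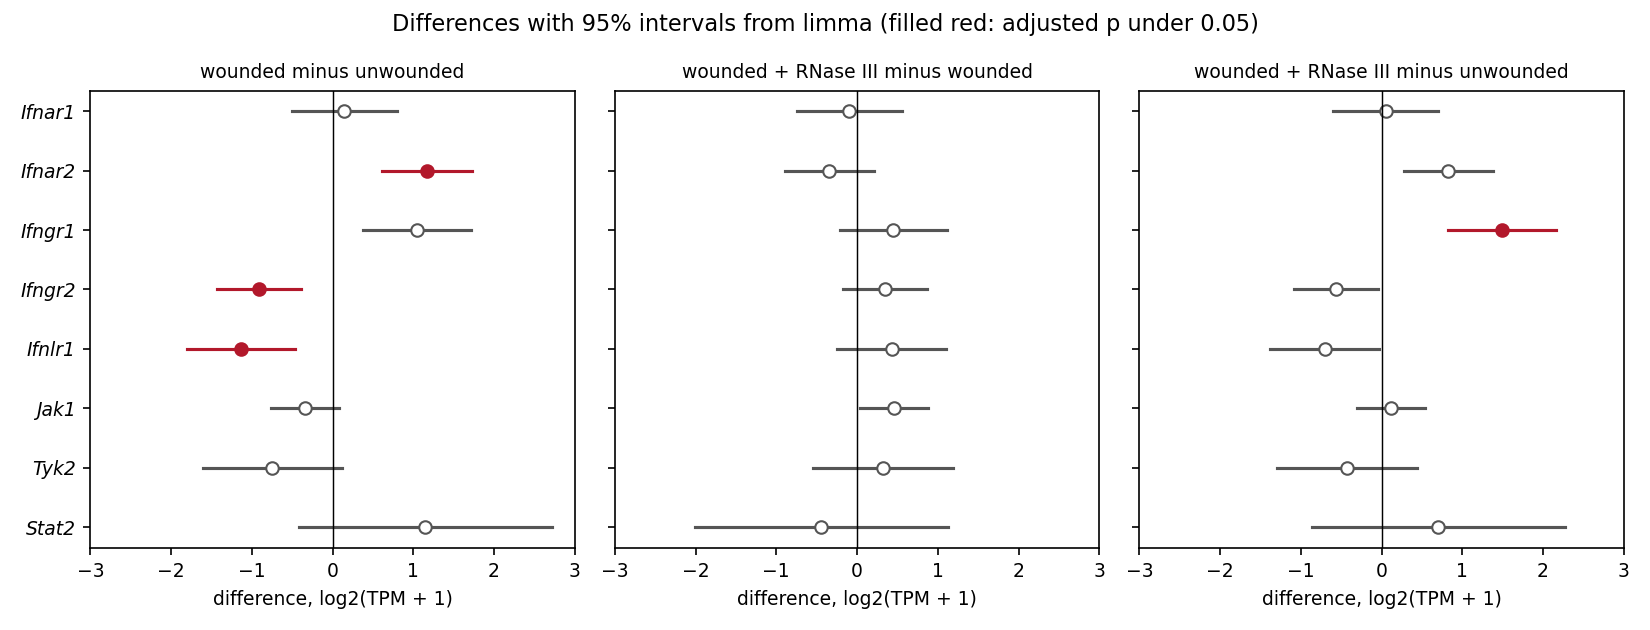
Differences on the log2(TPM + 1) scale (x axis) with 95% intervals from limma for the 8 detected genes in the 3 comparisons; filled red points have an adjusted p under 0.05. The wound moved Ifnar2 up (1.17) and Ifngr2 and Ifnlr1 down (-0.91 and -1.13), no gene passed between RNase III and wounded corneas, and Ifngr1 (1.49) passed between RNase III and unwounded corneas.

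A ratio of partner chains within a library does not depend on how that library was scaled. The ratio of Ifngr2 to Ifngr1 was 0.680 and 0.691 in unwounded corneas, 0.165 and 0.179 after the wound and 0.184 and 0.141 with RNase III. The 4 wounded libraries thus lay within a narrow band far below the unwounded pair. The ratio of Ifnar2 to Ifnar1 was 1.31 and 1.07 in unwounded corneas, 2.61 and 2.32 after the wound and 2.31 and 1.86 with RNase III. The ratio of Ifnlr1 to Il10rb was 0.251 and 0.287, then 0.0884 and 0.115, then 0.170 and 0.134, with no overlap among the 3 groups. None of these ratios was tested.

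**Figure D3:**
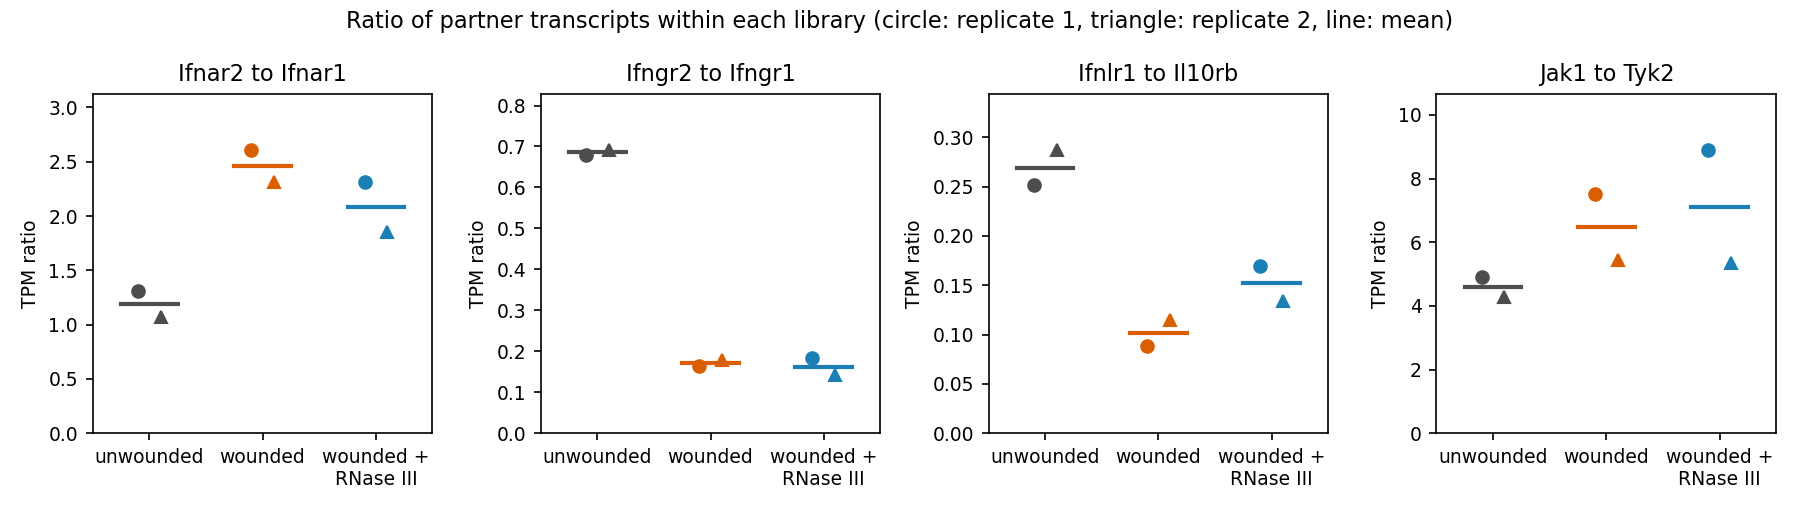
TPM ratio within each library (y axis, from 0) for 3 pairs of receptor chains and for Jak1 to Tyk2, by group; circles are replicate 1, triangles replicate 2 and lines the mean of 2. The ratio of Ifngr2 to Ifngr1 is near 0.68 in unwounded corneas and between 0.141 and 0.184 in the 4 wounded libraries, while Jak1 to Tyk2 ranges from 4.29 to 8.89.

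Several of these receptor genes are neighbours. Among protein-coding genes with a value above 0 in these libraries, Ifnar2, Il10rb, Ifnar1 and Ifngr2 follow one another on the plus strand of mouse chromosome 16, from 91372783 to 91565623. Along that row Ifnar2 rose, Il10rb had a wound difference of 0.05 (SE 0.26), Ifnar1 one of 0.15, and Ifngr2 fell. Neighbours in this row thus had differences of both signs. Gm21970, a gene model that runs from Ifnar2 into Il10rb on the same strand, was listed at 0 in all libraries, so how the reads of that stretch were split between the models cannot be checked in TPM.

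The kinase genes had lower values after the wound without passing the test. Jak1, which serves all 3 receptor types (ENSMUSG00000028530, chromosome 4, 101152367 to 101265282, minus strand), measured 58.18 and 59.69 TPM in unwounded corneas, 45.38 and 47.42 TPM after the wound and 59.49 and 68.79 TPM with RNase III. The wounded pair was the lowest. Its wound difference was -0.34 (SE 0.18, adjusted p = 0.21), near the all-gene median, and -0.05 with median-of-ratios scaling. Tyk2, the kinase of the type I and lambda receptors (ENSMUSG00000032175, chromosome 9, 21104068 to 21131243, minus strand), had 11.88 and 13.93, 6.04 and 8.74, and 6.69 and 12.88 TPM in the same order. The wound difference of Tyk2 was -0.74 (SE 0.36, adjusted p = 0.184). An annotated antisense gene, 1700084C06Rik, overlaps 24326 bases of the Tyk2 locus and had at most 0.15 TPM. The labels do not say whether counting used strand, so reads of the pair may not be separable.

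Stat2 is the factor that, with IRF9, carries type I and lambda signals to the ISRE (ENSMUSG00000040033, chromosome 10, 128270559 to 128292849, plus strand). It had 9.57 and 14.39 TPM in unwounded corneas, 23.72 and 31.23 TPM after the wound and 8.79 and 42.88 TPM with RNase III. Both wounded libraries exceeded both unwounded ones, whereas RNase III replicate 1 was the lowest of the 6 and replicate 2 the highest, 4.88-fold apart. No other gene of the 8 had its replicates of 1 group more than 1.93-fold apart. The Stat2 wound difference was 1.15 (SE 0.65, 95% interval -0.42 to 2.71, adjusted p = 0.244). With only the 2 groups compared, where the spread of the RNase III pair does not enter, Stat2 was called higher (adjusted p = 0.0448). It was also called without RNase III replicate 1 or 2. Stat2 was not called with no filter (adjusted p = 0.4), with no trend (adjusted p = 0.271) or under median-of-ratios scaling (adjusted p = 0.143). Nor was it called without any 1 of the unwounded or wounded libraries. The differences were then 0.875 and 1.42 without unwounded replicates 1 and 2, and 1.34 and 0.95 without wounded replicates 1 and 2.

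The promoter of Stat2 is shown because it was the only one of the 9 whose window, from 250 bases before to 50 bases after the start, held the ISRE core, searched on both strands as the letters GAAA, any 2 bases, and GAAA again. The start is that of the RefSeq transcript. Of 32851 such mouse windows in RefSeq on GRCm38.p6, 3.44% held it. The bases before the start are given for the plus strand of chr10:128270248-128270497, with the match, which reads on the opposite strand, in capitals at positions -222 to -213 from the start.
Stat2 promoter: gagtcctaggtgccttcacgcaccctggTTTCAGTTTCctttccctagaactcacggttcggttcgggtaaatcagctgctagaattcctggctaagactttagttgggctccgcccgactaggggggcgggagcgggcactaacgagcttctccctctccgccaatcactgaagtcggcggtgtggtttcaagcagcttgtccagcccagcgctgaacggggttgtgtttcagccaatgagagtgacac

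Read on the strand of the GAAA letters, with 10 bases on each side, the Stat2 site stands beside those of 3 interferon target genes whose expression is given below, with the core in capitals.
Stat2, chr10:128270266-128270295, minus strand: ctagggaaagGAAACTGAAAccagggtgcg
Ifit1, chr19:34640794-34640823, minus strand: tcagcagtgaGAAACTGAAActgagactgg
Cxcl10, chr5:92349083-92349112, minus strand: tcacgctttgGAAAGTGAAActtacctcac
Rsad2, chr12:26456553-26456582, plus strand: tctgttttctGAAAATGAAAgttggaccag
Ifit1 had another match in its window, and the 1 shown has the same core letters as Stat2. With a window were 18 interferon target genes, of which 10 held the core, and of 19 interferon ligand genes 11 did. Among other JAKs, STATs and partners it was 1 of 8, and among brakes on the signal 1 of 8. The GAS letters TTCNNNGAA, which read the same on both strands, were in 8.3% of all windows and in those of 2 of the 9 genes, as TTCCTGGAA at positions -214 to -206 from the start of Ifnar2 and as TTCACGGAA across the start of Ifnar1. A match is a run of letters and does not show a bound site.

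The genes around the pathway were read from lists of its other parts. Of 9 tested genes among other JAKs, STATs and their partners 1 rose with the wound and none fell, where 6.12% of all tested genes rose and 9.83% fell. Their median log2 difference was 0.05 beside -0.26 over all tested genes, and 0.33 beside -0.01 under median-of-ratios scaling. The 1 was Irf9, the DNA-binding partner of STAT2, with 16.24 and 16.04 TPM in unwounded corneas, 39.76 and 50.57 TPM after the wound and 29.01 and 62.17 TPM with RNase III (wound difference 1.42, SE 0.36, adjusted p = 0.0444). The call for Irf9 was lost without each of the 4 unwounded and wounded libraries, at differences between 1.25 and 1.59 (adjusted p = 0.134 to 0.237). It was also lost with no filter (adjusted p = 0.104) and with no trend (adjusted p = 0.0606).

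Of 12 brakes on the signal 3 rose and 0 fell with the wound, beside the same 6.12% and 9.83% of all tested genes. Their median log2 difference was 0.05, or 0.32 under median-of-ratios scaling. Socs3, an inhibitor of receptor-bound kinases, went from 2.78 and 3.21 TPM to 126.63 and 76.34 TPM (difference 4.64, SE 0.34, adjusted p = 0.00367). Usp18, which binds IFNAR2 and removes ISG15 from proteins, went from 5.77 and 4.97 TPM to 46.23 and 85.21 TPM (difference 3.33, SE 0.53, adjusted p = 0.0189). Socs1, an inhibitor of JAK kinases, went from 1.31 and 0.94 TPM to 6.65 and 6.04 TPM (difference 1.79, SE 0.30, adjusted p = 0.0203). Socs3 kept its call in all 12 alternatives, while Usp18 and Socs1 lost theirs with no filter (adjusted p = 0.0609 and 0.0667) and without unwounded replicate 1 (adjusted p = 0.108 and 0.117), unwounded replicate 2 (0.154 and 0.186) or wounded replicate 1 (0.0823 and 0.117). Usp18 also lost it without wounded replicate 2 (adjusted p = 0.0514).

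Of 23 interferon target genes 13 rose and 1 fell with the wound, where 6.12% of all tested genes rose and 9.83% fell, and their median log2 difference was 2.87. The median of this list over its genes, set against the unwounded mean, was 2.40 and 3.14 in the wounded libraries and 0.95 and 2.41 in the RNase III libraries. The largest rises were those of Cxcl10, a T cell chemokine (4.13, adjusted p = 0.0122), Ifit1, a binder of foreign RNA (4.12, adjusted p = 0.0149), Zbp1, a sensor of Z-form nucleic acid (3.92, adjusted p = 0.0273), and Rsad2, the antiviral enzyme viperin (3.62, adjusted p = 0.0318). Without unwounded replicate 1, unwounded replicate 2 or wounded replicate 1 these 4 calls were lost, at adjusted p between 0.0612 and 0.189 and differences between 3.23 and 4.67. Zbp1 and Rsad2 were also lost without wounded replicate 2 (adjusted p = 0.0861 and 0.0958), and Ifit1, Zbp1 and Rsad2 with no filter (adjusted p = 0.0562, 0.0789 and 0.0893). The gene that fell, named after its values were seen, was Irf1, a transcription factor gene that interferon gamma induces, from 177.98 and 165.21 TPM to 28.83 and 80.59 TPM (-1.81, adjusted p = 0.0435). Without wounded replicate 1 its difference was -1.08 (adjusted p = 0.126), and its call was lost in 8 of the 12 alternatives.

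**Figure D4:**
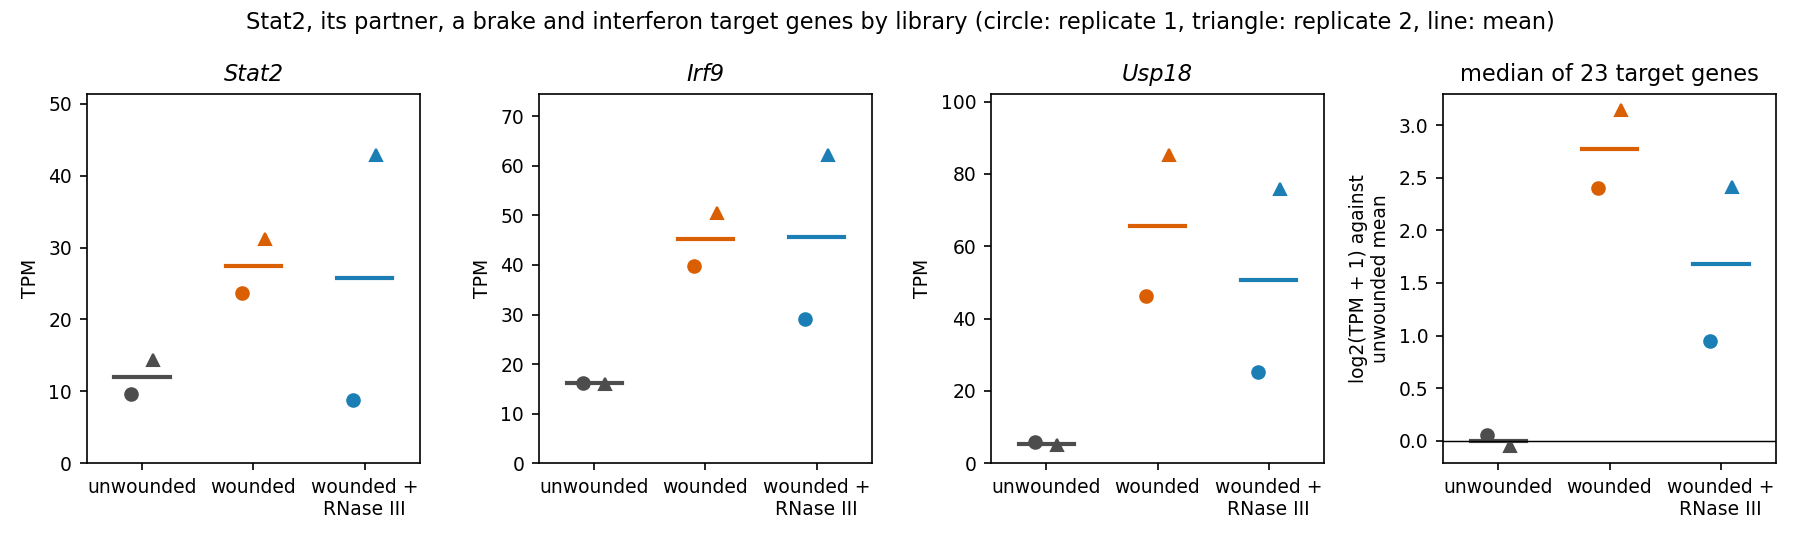
TPM of Stat2, its partner gene Irf9 and the brake gene Usp18 (y axes from 0), and the median over 23 interferon target genes of log2(TPM + 1) against the unwounded mean, in each library; circles are replicate 1, triangles replicate 2 and lines the mean of 2. In all 4 panels RNase III replicate 1 lies below both wounded libraries, and in the Stat2 and Irf9 panels RNase III replicate 2 lies above both.

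The second comparison asks how wounded corneas differed after the enzyme. limma called none of the 8 genes, and 0% of all tested genes were called in either direction. At an unadjusted p under 0.05 there was 1 of 8, Jak1, and 1838 of all 14748 tested genes. The Jak1 levels of the RNase III pair lay above those of the wounded pair, by 0.46 (SE 0.18, 95% interval 0.03 to 0.88, adjusted p = 0.378). Those of Ifngr2 and Ifnlr1 did as well, by 0.35 (95% interval -0.17 to 0.87, adjusted p = 0.542) and 0.43 (95% interval -0.24 to 1.10, adjusted p = 0.554). In all 3 of 8 had all RNase III values above the wounded ones, where 25.9% of tested genes did, and 0 of 8 had them below, where 14.3% did (40.2% in either direction).

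For the other 5 genes the libraries overlapped. The Ifnar2 difference was -0.34 (95% interval -0.89 to 0.21, adjusted p = 0.565) and that of Ifngr1 0.45 (95% interval -0.22 to 1.12, adjusted p = 0.537). Those of Ifnar1, Tyk2 and Stat2 were -0.10, 0.32 and -0.45, and their sign turned on 1 library. Without RNase III replicate 1 the Stat2 difference was 0.64 and the Ifnar1 difference 0.20, and without RNase III replicate 2 the Tyk2 difference was -0.11. Without wounded replicate 1 the Ifnar1 difference was 0.03. The 95% interval of the Stat2 difference ran from -2.01 to 1.12.

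The RNase III replicates also lay apart in genes that act with or after Stat2. Irf9 was at 29.01 TPM in RNase III replicate 1 and 62.17 TPM in replicate 2, and Usp18 at 25.28 and 75.97 TPM. The wounded values of Irf9 lay between its RNase III values, and those of Usp18, 46.23 and 85.21 TPM, lay between and above. The median of the 23 interferon target genes was -0.65 against wounded corneas, where that of all tested genes was 0.09. None of the 23 was called and 7 had an unadjusted p under 0.05, beside 1838 of all 14748 tested genes. Without RNase III replicate 1 the target and all-gene medians were 0.17 and 0.20, and without replicate 2 they were -1.87 and -0.02. Among other JAKs, STATs and partners the median was 0.13 with 0 of 9 called and 1 at an unadjusted p under 0.05. It was Stat6, named after its values were seen, and it was higher (0.64). Among the brakes the median was 0.14 with 0 of 12 called and 1 at an unadjusted p under 0.05, Socs1, which was lower (-0.87). Both medians were near the 0.09 of all tested genes. Replicate 1 also had the fewest genes above 0 TPM, 16751 against 19455 to 21033 in the others, and the part of library quality in the split was not tested.

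The third comparison, of RNase III with unwounded corneas, shares its unwounded libraries with the first, so the values are set side by side and are not a second test of the wound. Ifngr1 was the 1 gene of 8 called, higher by 1.49 (SE 0.28, 95% interval 0.83 to 2.16, adjusted p = 0.0323), where 9.3% of all tested genes were called, 4.72% higher and 4.58% lower. Its wound difference without the enzyme was 1.04. The Ifngr1 call was lost without unwounded replicate 1 or 2 (differences 1.46 and 1.52, adjusted p = 0.155 and 0.209) and with no filter (adjusted p = 0.0799). The genes with the closest pattern to Ifngr1 were Pum3, an RNA-binding protein gene (r = 0.998), Cotl1, an actin-binding protein gene (r = 0.998), and Morf4l2, a chromatin factor gene (r = 0.998). Cotl1 had 112.71 and 111.46 TPM in unwounded corneas, 335.54 and 278.66 TPM after the wound and 333.41 and 783.16 TPM with RNase III.

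The 3 genes called with the wound kept their direction without passing. Ifnar2 was higher by 0.83 (adjusted p = 0.0669), beside 1.17 with the wound alone. Ifngr2 was at -0.56 (adjusted p = 0.126), beside -0.91, and Ifnlr1 at -0.71 (adjusted p = 0.13), beside -1.13. Jak1, at 0.12, Tyk2, at -0.42, Stat2, at 0.70, and Ifnar1, at 0.05, each overlapped the unwounded libraries. The signs of Stat2, Tyk2 and Ifnar1 again turned on 1 library, at -0.38 for Stat2 without RNase III replicate 2, 0.00 for Tyk2 without RNase III replicate 1, and -0.24 and -0.03 for Ifnar1 without RNase III replicate 2 or unwounded replicate 1. The libraries did not overlap for 4 of 8, with 2 higher and 2 lower, and they did not overlap for 66% of all tested genes, 26.3% higher and 39.7% lower.

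Around them, 2 of 12 brakes rose against unwounded corneas and none fell, where 4.72% of all tested genes rose and 4.58% fell. They were Socs3, by 4.30 (adjusted p = 0.00431), and Usp18, by 2.82 (adjusted p = 0.0323). Without unwounded replicate 1 or 2 the Socs3 difference was 4.22 and 4.38 (adjusted p = 0.0557 and 0.0539) and that of Usp18 2.91 and 2.73 (adjusted p = 0.13 and 0.208). Usp18 also lost its call without RNase III replicate 2, at 2.05 (adjusted p = 0.0551), and with no filter (adjusted p = 0.0869). Of 23 target genes 6 rose and none fell, beside the same 4.72% and 4.58% of all tested genes. The median of the targets was 1.42, where that of all tested genes was -0.16. Without RNase III replicate 2 these medians were 0.95 and -0.26, and without replicate 1 they were 2.41 and -0.07. The differences of Cxcl10, Ifit1 and Zbp1 were 2.37, 2.69 and 3.30 (adjusted p = 0.0423, 0.0419 and 0.0478), and each call was lost without unwounded replicate 1 (adjusted p = 0.181, 0.159 and 0.164), unwounded replicate 2 (0.213, 0.23 and 0.245) or RNase III replicate 2 (differences 1.77, 1.74 and 2.05). Rsad2 was at 2.53 (adjusted p = 0.0789). Among other JAKs, STATs and partners 0 of 9 were called and 1, Irf9, had an unadjusted p under 0.05 (difference 1.34, adjusted p = 0.0616). Of all 14748 tested genes 5070 had an unadjusted p under 0.05 in this comparison. Irf9 was called with median-of-ratios scaling (adjusted p = 0.0329) and without RNase III replicate 1 (1.88, adjusted p = 0.0312).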

How the data were processed

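The authors deposited TPM values, 1 column a library, for 54446 rows with Ensembl identifiers. The submitters' processing notes name STAR, RSEM, DESeq2 and mm10 without role or version, and which annotation, filters and strand setting were used was not given in the sources used here. Since TPM keeps no depth, no counting interval can be given, and each value depends on the rest of its library. Symbols came from GENCODE M21 on GRCm38 (54409 identifiers matched), promoters from RefSeq on GRCm38.p6.

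Samples were grouped by their titles. Genes that reached 1 TPM in 2 or more samples (14748) were fitted on the log2(TPM + 1) scale with limma 3.58.1 in R 4.3.3, as a group-means model over all 6 samples with a mean-variance trend, 3 residual and 3.6 prior degrees of freedom. Tests were two-sided and Benjamini-Hochberg adjusted per comparison. The fit was also run on 10 simulated data sets with 200 changed genes each, fewer than the 2352 called with the wound. The share of changed genes recovered is not given here, so the run says nothing on error rates in these data.

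The genes and lists were chosen with earlier results of these data known. From each list the called genes were named, at most 4 by size, or the 2 most abundant where none was called. For each called gene of the 9, the 3 genes with the highest Pearson correlation were named, leaving out gene models, clones and pseudogenes. Other settings tried were no trend, no filter, a pseudocount of 0.1, a fit to the 2 groups compared alone, median-of-ratios scaling, and a block for the replicate number. Each library was also left out once, and a sample left alone in its group is then assumed to vary like the other groups. Except with no filter, the same 14748 genes were tested. For the listed genes outside the 9 these settings were chosen after seeing the data.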

Additional observations from a re-analysis of the deposited data

How the results depend on the processing

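Of the 8 tested genes, 3 were called with the wound, 0 with no filter (24958 genes tested) and 5 with only the 2 groups compared, and between 0 and 5 when a library was left out; all genes called numbered 444 with no filter and from 25 to 3242 with a library left out, against 2352. For RNase III against unwounded corneas the 1 call became 0 with no filter and 0 to 1 with a library left out, and the count over all genes went from 1371 to 69 with no filter and 17 to 1283 with a library left out. For RNase III against wounded corneas 1 gene was called with a pseudocount of 0.1, and 0 to 1 with a library left out, against 0. Without unwounded replicate 1, unwounded replicate 2 or wounded replicate 1 the wound comparison had 25, 26 and 71 calls. In the wound comparison median-of-ratios scaling made 60.4% of calls higher in place of 38.4%.

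Differences that changed sign did so only when a library was left out. Their ranges for RNase III against wounded corneas were -0.39 to 0.20 for Ifnar1, -0.11 to 0.75 for Tyk2, -1.53 to 0.64 for Stat2, -0.61 to 0.46 for Irf9, -0.72 to 0.042 for Socs3, -1.28 to 0.27 for Usp18, -1.87 to 0.64 for Zbp1, -2.34 to 0.17 for Rsad2 and -0.32 to 1.13 for Irf1. Against unwounded corneas they were -0.24 to 0.34 for Ifnar1, -0.85 to 0.0013 for Tyk2 and -0.38 to 1.78 for Stat2. The cause was not tested. Of 288 alternative values for the 8 genes 253 kept direction and side of the threshold. Most of these were for differences that were not called to begin with. Of the rest, 20 lost a call, 7 gained a call and 8 changed sign.

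The labels do not say that a replicate number marks a shared animal or day, and the deviations of same-numbered samples had correlations of 0.146, 0.103 and -0.0469. With the replicate block 2 of 8 genes were called with the wound in place of 3, Ifngr2 being at adjusted p = 0.0543, and all genes called numbered 2032; 1 gene and 1449 genes were called for RNase III against unwounded corneas, and 0 and 0 against wounded.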
